A study of Mus musculus with 10 samples.

Results

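The genes described here serve antigen presentation by major histocompatibility complex (MHC) class I, and comprise *H2-K1*, *H2-D1*, *B2m*, *Tap1*, *Tap2*, *Tapbp*, *Psmb8*, *Psmb9*, *Psmb10* and *Nlrc5*. They were taken by symbol from the deposited count table, in which each of the 10 had 1 row of 24421 rows, and all 10 were among the 13180 genes that passed the low-count filter and were tested. RNA came from the calf muscles (gastrocnemius and plantaris together) of male C57BL/6 mice aged 12 weeks. All mice were housed singly and fasted for about 16 h, then injected intraperitoneally with 0.9% saline (5 mice, numbers 32, 34, 36, 38 and 39) or with ethanol at 3 g/kg (5 mice, numbers 51, 57, 59, 60 and 62), and their muscle was dissected under isoflurane 1 h later. Each library holds poly(A) RNA of 1 mouse, and the labels name no batch. The question was whether a single binge-like dose of ethanol had moved these transcripts by 1 h.

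MHC class I molecules show peptides from inside the cell to cytotoxic T cells. The proteasome cuts proteins into peptides, the TAP transporter carries them into the endoplasmic reticulum, tapasin loads them onto a heavy chain paired with beta-2-microglobulin, and the complex moves to the cell surface. Interferon gamma replaces the 3 catalytic beta subunits of the proteasome by immunoproteasome subunits and raises the whole pathway, partly through NLRC5, a nuclear regulator that acts at class I promoters. Resting muscle fibres are known for little surface class I, while endothelial and immune cells within muscle carry more.

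Libraries held 32038927 to 42654771 counts in the saline group and 20317959 to 31252438 in the ethanol group, and each ethanol library was shallower than each saline library. The 8 skeletal myofibre markers checked, such as *Myh4* and *Acta1*, summed to between 152151 and 183220 CPM (counts scaled per library by TMM to a common total) in saline and between 154586 and 180497 CPM in ethanol, which matches the labelled tissue. Saline 36 and ethanol 60 were the extremes for these genes: saline 36 held the lowest CPM of 8 of the 10 genes and ethanol 60 the highest CPM of 8 of them. How often these libraries were the extremes over all genes tested was not computed. Values without these libraries are given beside the genes. Where a gene had its extremes in them, leaving them out lowers its fold change by the choice itself.

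The promoters are shown because class I genes share control elements at their starts, and because *Tap1* and *Psmb9* are transcribed away from each other from neighbouring starts. RefSeq promoter windows on GRCm38.p6, from 250 bases before the start to 50 bases from it, were matched for 8 of the 10 genes, not for *Tap2* and *Nlrc5*, and 4 are printed 5′ to 3′ on the gene's strand. *H2-K1* has 2 windows, of which the first listed is used (chr17:34000298-34000597, minus strand). *H2-D1* lies at chr17:35262844-35263143 (plus strand), *B2m* at chr2:122147437-122147736 (plus strand) and *Tap1* at chr17:34187306-34187605 (plus strand). Capitals mark matches, on either strand, to the interferon regulatory factor core AANNGAAA, the kappaB consensus, the CCAAT box (CCAAT) and the cyclic AMP response element (CRE) core TGACG.
H2-K1: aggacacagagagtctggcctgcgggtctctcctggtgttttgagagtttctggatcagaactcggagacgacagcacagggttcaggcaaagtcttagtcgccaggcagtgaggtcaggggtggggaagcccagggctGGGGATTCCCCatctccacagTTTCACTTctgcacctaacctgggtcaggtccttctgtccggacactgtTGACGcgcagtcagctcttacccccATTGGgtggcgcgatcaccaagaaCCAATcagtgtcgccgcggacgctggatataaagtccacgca
H2-D1: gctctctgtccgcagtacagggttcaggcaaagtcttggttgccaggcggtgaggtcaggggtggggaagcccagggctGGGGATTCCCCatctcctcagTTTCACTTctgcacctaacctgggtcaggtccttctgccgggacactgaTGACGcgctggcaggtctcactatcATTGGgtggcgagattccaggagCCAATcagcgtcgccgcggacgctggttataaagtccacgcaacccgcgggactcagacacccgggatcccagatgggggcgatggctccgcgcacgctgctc
B2m: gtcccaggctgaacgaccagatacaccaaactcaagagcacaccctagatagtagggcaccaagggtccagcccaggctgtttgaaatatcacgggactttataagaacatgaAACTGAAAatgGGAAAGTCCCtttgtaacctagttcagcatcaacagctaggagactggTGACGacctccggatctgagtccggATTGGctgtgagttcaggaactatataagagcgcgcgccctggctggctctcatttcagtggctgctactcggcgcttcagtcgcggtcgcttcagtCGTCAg
Tap1: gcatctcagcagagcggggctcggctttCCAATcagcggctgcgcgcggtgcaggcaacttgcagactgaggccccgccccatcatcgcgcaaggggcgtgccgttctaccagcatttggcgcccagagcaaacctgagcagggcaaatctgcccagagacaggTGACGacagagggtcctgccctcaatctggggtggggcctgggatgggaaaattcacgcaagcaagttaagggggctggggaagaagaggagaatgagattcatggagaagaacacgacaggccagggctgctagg

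The *H2-K1* and *H2-D1* windows carried the same elements in the same order, a kappaB match read on both strands, an interferon regulatory factor core, a CRE core and a pair of CCAAT boxes facing opposite ways. Their distances from the listed starts differed. The CCAAT boxes began at bases -16 and 8 in *H2-K1*, the latter after its listed start, and at -76 and -53 in *H2-D1*. Laid side by side without a gap the windows shared 240 bases, of which 176 (73.3%) were identical. An interferon regulatory factor core was found in 3 of the 8 windows (*H2-K1*, *H2-D1* and *B2m*), against 23.9% of 32841 windows of the same length. The same 3 windows had a kappaB match, against 8.46% of all windows. A CCAAT box was in 6 of the 8, against 37.4% of all windows, and a CRE core in 5 of the 8, against 20.8%. The *Tap1* and *Psmb9* windows overlap by 275 bases on opposite strands, with starts 226 bases apart, so the matches of these genes are the same sites. The *Psmb8* and *Psmb10* windows held none of the 4 motifs. A match is a description of letters, not of binding.

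All 10 class I presentation genes had a higher fitted level in ethanol than in saline, by between 0.16 and 0.45 on the log2 scale, with a median of 0.29, which is 22.2% higher. Over all genes tested the median log2 fold change was 0.00096 and 50.2% were positive (60.3% when libraries were scaled by total count alone). None of the 10 passed a false discovery rate (FDR, adjusted over all genes) of 0.05 in edgeR, with FDR values from 0.287 for *Tap2* to 0.631 for *Psmb9*, and neither did any other gene (0% of genes tested). At an unadjusted p under 0.05 edgeR placed 3 of the 10 higher, *Tap2*, *H2-D1* and *H2-K1*, where 6.22% of all genes were so placed, and 1599 genes passed in either direction. DESeq2 called 55 genes (0.468% of those to which it gave an adjusted p) and limma-voom called 0. None of the 9 genes of the 10 to which DESeq2 gave an adjusted p was called (*Nlrc5* had none), and the smallest was 0.0795, for *Tap2*. For *Tap2* alone every ethanol library lay above every saline library, as it did for 1.36% of genes tested. Without saline 36 and ethanol 60 the 10 fold changes were still positive, with a median of 0.14. Both libraries were picked by the values of these genes, so a smaller median follows from the choice. *Tap2* alone then had an unadjusted p under 0.05, as 4.08% of all genes did in the higher direction. Without ethanol 57 or ethanol 60 the count at that p was 1 of the 10, beside 4.33% and 4.91% of all genes. It was 5 without ethanol 62, beside 5.54%, and 6 without saline 34 or ethanol 59, beside 6.58% and 5.99%. Samples are whole muscle, so more cells of a type and more RNA per cell cannot be told apart.

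**Figure D1:**
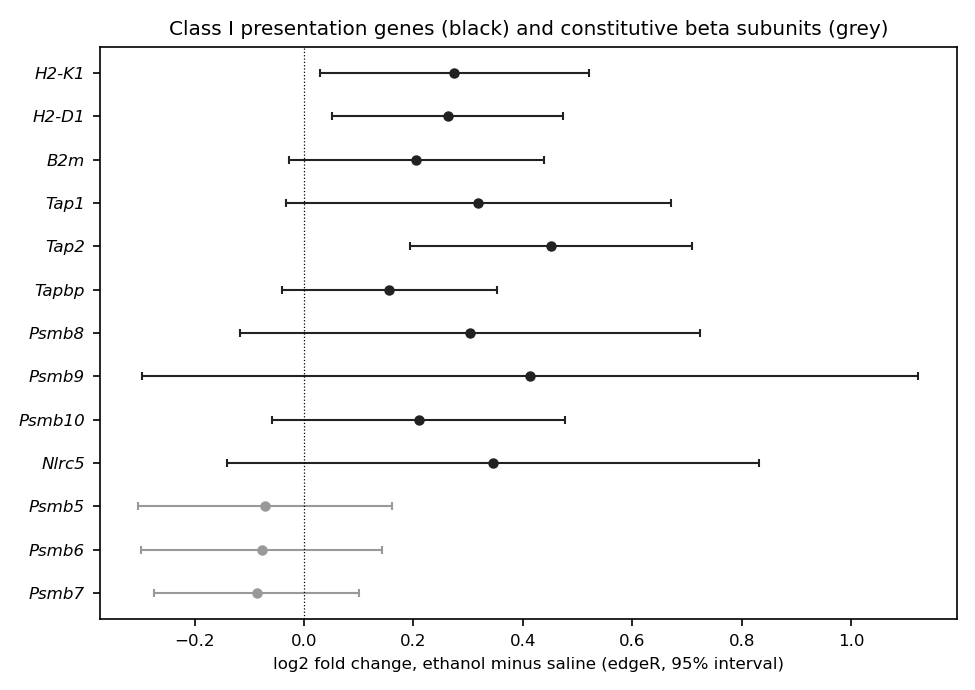
Log2 fold change, ethanol minus saline, of the class I presentation genes (black) and of the constitutive proteasome beta subunits (grey), with 95% intervals from edgeR (n = 5 mice per group). All 10 black points lie between 0.16 and 0.45, the intervals of *H2-K1*, *H2-D1* and *Tap2* lie above 0, and the grey points lie between -0.09 and -0.07.

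The upstream regulator was barely detected. *Nlrc5* (GRCm38 chromosome 8, 94434356 to 94527272) had between 18 and 33 reads per library, and the 18 reads of ethanol 59 have a 95% Poisson interval from 10.7 to 28.4, which covers counting error only. It stood at 0.63, 0.90, 0.56, 0.83 and 0.75 CPM in saline mice 32, 34, 36, 38 and 39, and at 1.02, 1.07, 0.70, 1.23 and 0.65 CPM in ethanol mice 51, 57, 59, 60 and 62. Ethanol 51, 57 and 60 lay above every saline library, and ethanol 59 and 62 lay among them. Its log2 fold change was 0.35 ± 0.23 (SE, edgeR FDR = 0.544), with a 95% interval from -0.14 to 0.83, and was 0.24 without ethanol 60 and 0.15 without saline 36 and ethanol 60. Among 15 transcription factors of class I promoters, such as IRF1 and the RFX and NF-Y subunits, 10 had positive fold changes, the median was 0.03, or 0.09 without ethanol 60, and 0 reached an unadjusted p under 0.05 in edgeR. *Irf1*, an interferon-induced activator of class I genes, had a log2 fold change of -0.02.

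The heavy chains bind the peptide, and *H2-K1* and *H2-D1* encode the classical chains of this strain. *H2-K1* (chromosome 17, 33996017 to 34000347) stood at 70.1, 77.5, 58.3, 72.4 and 68.7 CPM in saline mice 32, 34, 36, 38 and 39. In ethanol mice 51, 57, 59, 60 and 62 it stood at 80.2, 88.3, 70.8, 108.6 and 72.1 CPM. Ethanol 51, 57 and 60 exceeded every saline library, while ethanol 59 and 62 fell between saline 39 and saline 38. The means were 69.4 ± 7.03 and 84.0 ± 15.5 CPM (SD, n = 5 each). On the log2 scale ethanol was higher by 0.27 ± 0.11 (SE, edgeR FDR = 0.379), or by 0.16 without ethanol 60 and 0.10 without saline 36 as well.

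*H2-D1* (chromosome 17, 35262730 to 35267499) stood at 22.96, 25.7, 22.5, 23.6 and 24.2 CPM in saline mice 32, 34, 36, 38 and 39. It stood at 26.9, 32.8, 24.7, 33.8 and 24.6 CPM in ethanol mice 51, 57, 59, 60 and 62. Ethanol 59 and 62 lay below saline 34, the highest saline library, and above the other saline libraries. Ethanol was higher by 0.26 ± 0.10 on the log2 scale (SE, edgeR FDR = 0.341), or by 0.20 without ethanol 60 and 0.17 without saline 36 as well. The saline spread was narrow, at 23.8 ± 1.25 CPM (SD, n = 5). These genes are close copies of each other and of other class I genes, and the sources used here do not say how shared reads were counted, so the split of reads between them is uncertain.

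Beta-2-microglobulin is the light chain that every class I heavy chain needs. *B2m* (chromosome 2, 122147686 to 122153083) stood at 84.0, 100.5, 94.4, 93.8 and 88.2 CPM in saline mice 32, 34, 36, 38 and 39 and at 97.3, 122.3, 88.5, 131.0 and 92.6 CPM in ethanol mice 51, 57, 59, 60 and 62. Ethanol 57 and 60 alone exceeded the highest saline library. Its log2 fold change was 0.21 ± 0.11 (SE, edgeR FDR = 0.459), or 0.12 without ethanol 60, with or without saline 36. Of the 10 genes *B2m* had the highest level per transcript length in saline, 107 ± 7.35 CPM per kilobase (SD, n = 5), followed by *H2-K1* at 42.9 ± 4.34. *Tapbp* at 13.0 ± 0.68 and *H2-D1* at 11.3 ± 0.59 CPM per kilobase overlapped between libraries and are not ordered. *Psmb10* followed at 6.99 ± 1.14, then *Tap2* (3.13 ± 0.22) and *Psmb8* (3.04 ± 0.98), which overlapped, then *Psmb9* (1.33 ± 0.69) and *Tap1* (1.31 ± 0.22), which overlapped, and last *Nlrc5* at 0.097 ± 0.018. *Psmb8* and *Psmb9* also overlapped in saline, though not in ethanol. The order of the means was the same in ethanol, with lengths taken from the principal transcript of each gene in GENCODE M21.

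Among 20 other class I and class I-like heavy chain genes 11 were tested, 9 had positive fold changes and the median was 0.17, or 0.09 without ethanol 60, with 0 past FDR 0.05 in edgeR. The exception with the smallest p was *H2-K2*, annotated as a pseudogene beside *H2-K1*, with 2.44 ± 0.66 CPM in saline mice and 1.71 ± 0.32 CPM in ethanol mice (SD, n = 5 each; log2 fold change -0.52, edgeR FDR = 0.353), the opposite sign to *H2-K1*. *Fcgrt*, the class I-like receptor that recycles IgG, stood at 53.3 ± 4.85 and 60.0 ± 5.06 CPM (0.17, edgeR FDR = 0.425). *H2-M3*, which presents formylated bacterial peptides, was at 0.34. *H2-Q6* and *H2-Q7* were listed at 0 in all 10 libraries.

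A transporter gene, *Tap2*, had the largest fold change of these genes in the edgeR fit of all libraries. In some alternatives *Psmb9* exceeded it, as in limma-voom (0.51 against 0.43 for *Tap2*). *Tap2* (chromosome 17, 34203527 to 34216321), encoding a subunit of the TAP heterodimer, stood at 11.2, 11.4, 9.54, 10.6 and 11.2 CPM in saline mice 32, 34, 36, 38 and 39. In ethanol mice 51, 57, 59, 60 and 62 it stood at 13.3, 15.9, 11.4, 19.1 and 14.2 CPM. The groups did not overlap, but the gap was small: the lowest ethanol library held 11.41 CPM and the highest saline library 11.38. The means were 10.8 ± 0.75 and 14.8 ± 2.89 CPM (SD, n = 5 each). On the log2 scale ethanol was higher by 0.45 ± 0.12 (SE), with a 95% interval from 0.19 to 0.71, and *Tap2* ranked 87 of 13180 genes in edgeR (FDR = 0.287). Its fold change was 0.35 without ethanol 60 and 0.30 without saline 36 and ethanol 60.

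*Tap1* (chromosome 17, 34187553 to 34197225), which encodes the partner subunit, stood at 4.38, 4.49, 2.97, 4.08 and 3.44 CPM in saline mice 32, 34, 36, 38 and 39 and at 5.39, 5.63, 3.52, 5.68 and 3.92 CPM in ethanol mice 51, 57, 59, 60 and 62. The ethanol libraries fell into 3 above every saline library and 2 within the saline range. Its fitted difference was 0.32 ± 0.16 on the log2 scale (SE, edgeR FDR = 0.453), or 0.23 without saline 36 and 0.17 without saline 36 and ethanol 60. In GENCODE M21 the spans of *Tap1* and *Psmb9* (chromosome 17, 34181987 to 34187764) overlap by 212 bases on opposite strands. The RefSeq starts of the promoter windows, 226 bases apart and facing away from each other, leave no such overlap. The sources used here give neither the annotation nor the strand setting of the counting. Whether reads from the 212 bases were told apart is therefore not known. The assignment of reads is uncertain for other genes too. *B2m* lies within *Patl2* and *Psmb10* within *Gm16156*, each on the opposite strand. *Tapbp* overlaps *Zbtb22* on the same strand, where no strand setting would tell reads apart. On opposite strands *Tap2* overlaps *Gm15821* and *Gm20496*, *Psmb8* overlaps *Gm20496*, and *Psmb7* overlaps *Nek6*. These are overlaps of whole gene spans with introns, and overlaps of exons were not examined.

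Tapasin bridges TAP and the heavy chain and edits the peptide. *Tapbp* (chromosome 17, 33915899 to 33929292) stood at 36.4, 34.9, 39.1, 39.3 and 38.8 CPM in saline mice 32, 34, 36, 38 and 39 and at 42.5, 45.6, 34.0, 48.7 and 39.2 CPM in ethanol mice 51, 57, 59, 60 and 62. Its lowest value was in an ethanol library, 59. The log2 fold change, the smallest of the 10, was 0.16 ± 0.09 (SE, edgeR FDR = 0.502), or 0.10 without ethanol 60, with or without saline 36. The general chaperones of the same step did not share the sign: of 12 peptide loading and class I assembly genes 3 were positive and 9 negative, with a median of -0.02, or -0.05 without ethanol 60. *Calr* (calreticulin) was at -0.0002, *Pdia3* (ERp57) at -0.03 and *Erap1*, which trims peptides, at -0.02. *Pdia4*, an endoplasmic reticulum disulfide isomerase, had 8.72 ± 1.10 CPM in saline mice and 10.8 ± 0.50 CPM in ethanol mice (SD, n = 5 each; log2 fold change 0.30, edgeR FDR = 0.314). *Tapbpl*, the tapasin-related peptide editor, was at 0.24. *Lnpep*, an aminopeptidase of endosomes, was at -0.48 (edgeR FDR = 0.410).

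**Figure D2:**
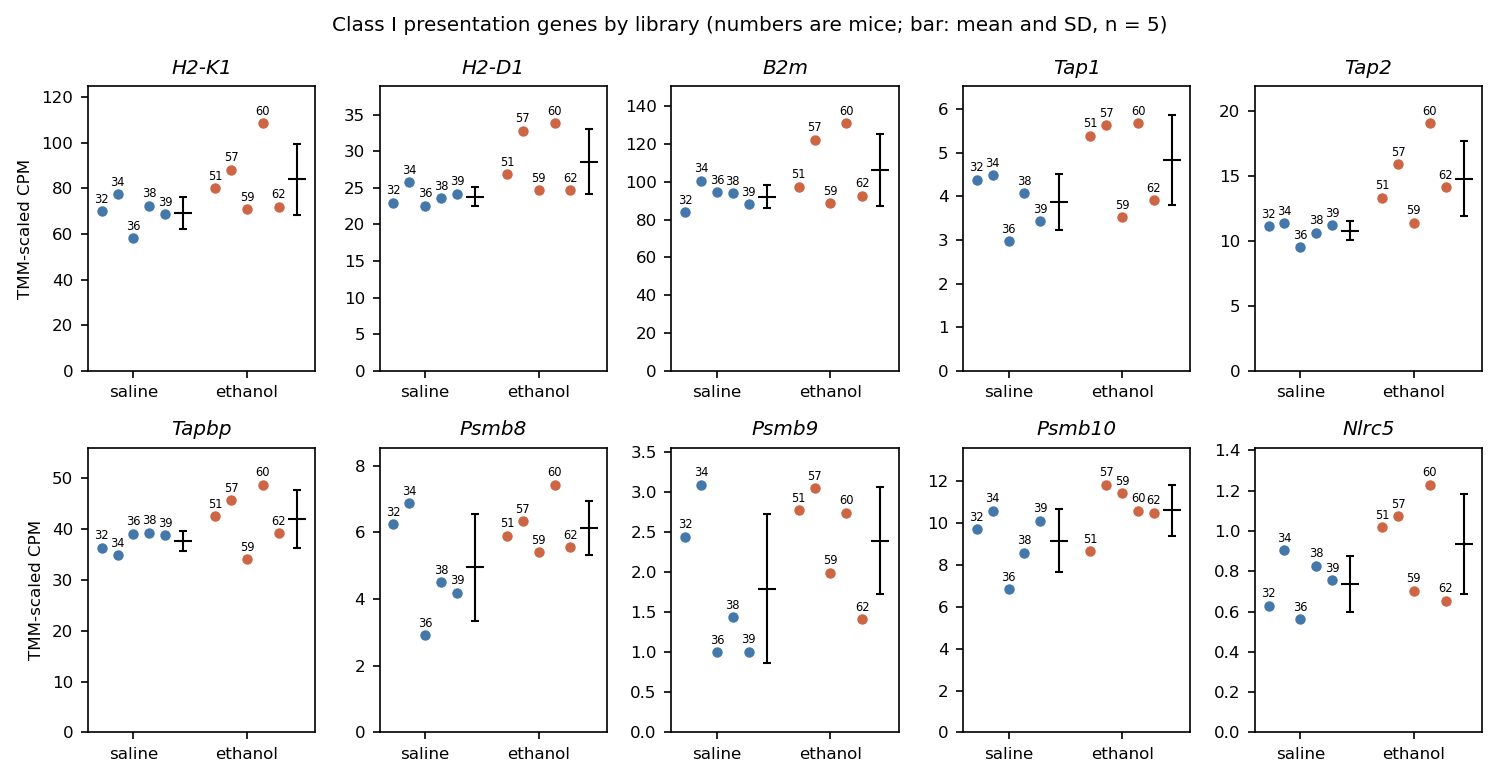
TMM-scaled CPM of the 10 class I presentation genes, 1 point per mouse with its number, and beside each group the mean and SD (n = 5). Ethanol 57 and 60 are high in most panels, ethanol 59 lies low in the ethanol group for most genes, and the groups are apart for *Tap2* alone, at 11.38 against 11.41 CPM.

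Of the immunoproteasome genes, *Psmb9* and *Psmb8* varied most of the 10 among saline mice, with coefficients of variation of 51.98% and 32.4%, against 16.4% for *Psmb10*. *Psmb8* (chromosome 17, 34197721 to 34201454) encodes beta5i, the subunit with chymotrypsin-like activity. It stood at 6.24, 6.87, 2.92, 4.51 and 4.19 CPM in saline mice 32, 34, 36, 38 and 39 and at 5.90, 6.33, 5.39, 7.43 and 5.55 CPM in ethanol mice 51, 57, 59, 60 and 62. Saline 32 and 34 lay within the ethanol range and saline 36 was the lowest. Its log2 fold change was 0.30 ± 0.20 (SE, edgeR FDR = 0.539), or 0.15 without saline 36 and 0.08 without ethanol 60 as well.

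*Psmb9*, encoding beta1i, stood at 2.44, 3.09, 1.00, 1.44 and 1.01 CPM in saline mice 32, 34, 36, 38 and 39 and at 2.77, 3.05, 1.99, 2.74 and 1.42 CPM in ethanol mice 51, 57, 59, 60 and 62. Its highest value was in a saline library, 34, and the saline libraries spanned a 3.10-fold range, against 1.14-fold for *H2-D1*. Its log2 fold change was 0.41 ± 0.33 (SE, edgeR FDR = 0.631), with a 95% interval from -0.30 to 1.12. It was 0.25 without saline 36, 0.20 without saline 36 and ethanol 60, and 0.70 without saline 34. *Psmb9* had between 36 and 113 reads per library.

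*Psmb10* (chromosome 8, 105935735 to 105938444), encoding beta2i, stood at 9.69, 10.6, 6.83, 8.58 and 10.1 CPM in saline mice 32, 34, 36, 38 and 39 and at 8.67, 11.8, 11.4, 10.6 and 10.5 CPM in ethanol mice 51, 57, 59, 60 and 62. Here ethanol 51 was the lowest ethanol library and ethanol 59 among the highest, unlike in the other genes. The log2 fold change was 0.21 ± 0.12 (SE, edgeR FDR = 0.505), or 0.11 without saline 36, with or without ethanol 60.

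The constitutive subunits that these replace were at far higher counts and showed no such sign. Saline and ethanol levels of *Psmb5* were 105 ± 17.0 and 100.1 ± 9.23 CPM, those of *Psmb6* 147 ± 20.4 and 139 ± 13.5, and those of *Psmb7* 276 ± 28.1 and 260.3 ± 20.1 (SD, n = 5 each). Their log2 fold changes were -0.07, -0.08 and -0.09, with edgeR FDR values of 0.826, 0.799 and 0.714. Among 9 genes of the proteasome activators and assembly chaperones 6 were positive and the median was 0.04. The PA28 activator genes *Psme1* and *Psme2*, which interferon gamma also induces, were at 0.11 and 0.03, and *Psme4*, encoding PA200, was at -0.30 (edgeR FDR = 0.397), with its highest value, 710.0 CPM, in saline 36.

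A ratio of subunits within a library does not depend on how libraries are scaled. There were 5.73, 5.37, 3.08, 5.44 and 3.83 counts of *Psmb8* per 100 counts of *Psmb5* in saline mice 32, 34, 36, 38 and 39, and 5.51, 7.22, 4.99, 8.04 and 5.35 in ethanol mice 51, 57, 59, 60 and 62. Ethanol 57 and 60 stood above every saline library and the rest lay within the saline range. The difference was 0.42 on the log2 scale (two-sided exact permutation p = 0.135, adjusted over the 3 ratios 0.159).

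For *Psmb9* per 100 counts of *Psmb6* the saline libraries ran from 0.659 to 1.83 and the ethanol libraries from 0.960 to 2.51, a difference of 0.59 (exact permutation p = 0.159, adjusted p = 0.159). For *Psmb10* per 100 counts of *Psmb7* they ran from 2.25 to 3.72 and from 3.22 to 5.14, a difference of 0.30 (exact permutation p = 0.127, adjusted p = 0.159). All 3 differences were positive and none passed, where the smallest exact p that 5 against 5 libraries allow is 0.00794. Without saline 36 and ethanol 60 they were 0.18, 0.34 and 0.15. Per transcript length the immunoproteasome subunit was at 2.52%, 0.659% and 2.92% of its counterpart in saline and at 3.38%, 0.989% and 3.60% in ethanol, from the means of the log2 ratios.

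**Figure D3:**
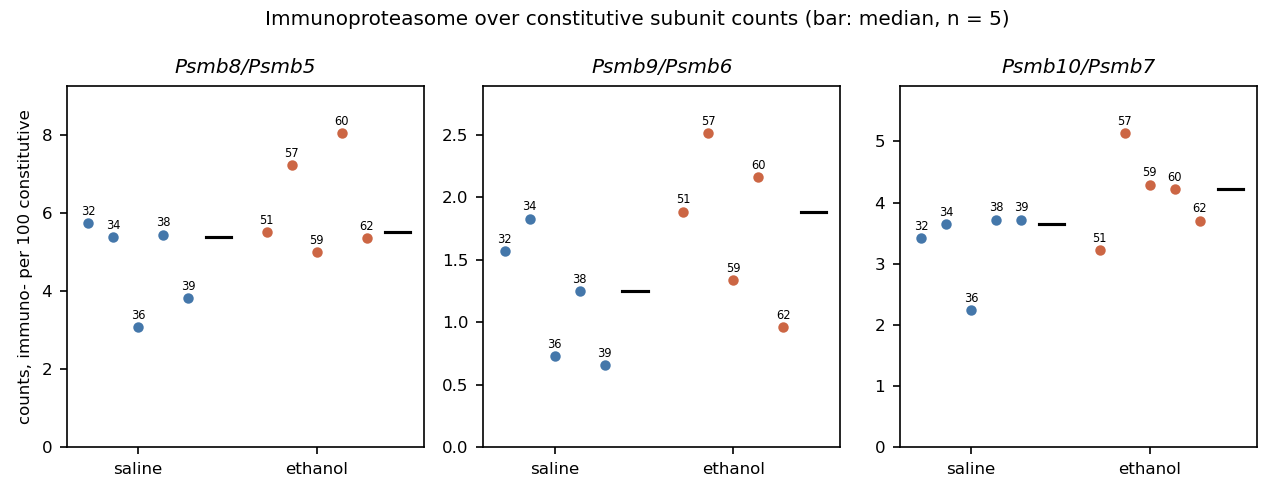
Counts of each immunoproteasome subunit per 100 counts of the constitutive subunit it replaces, 1 point per mouse with its number, with the group median (n = 5 mice per group). The groups overlap in each panel, and saline 36 lies low in all 3, at 3.08, 0.729 and 2.25.

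Read across genes, the ethanol libraries were uneven. Ethanol 60 exceeded every saline library in 9 of the 10 genes and ethanol 57 in 8, ethanol 51 in 6, ethanol 59 in 2 and ethanol 62 in 1. The matching shares over all genes tested were not computed, so whether this unevenness is particular to these genes is not known. Relative to the saline mean, the median gene was higher by 0.60 log2 CPM in ethanol 60, 0.44 in ethanol 57, 0.26 in ethanol 51, 0.05 in ethanol 62 and 0.04 in ethanol 59. Saline 34 lay at 0.19 and saline 36 at -0.29. Saline 32 and 34 were above the saline mean in the immunoproteasome genes, by 0.57 and 0.91 log2 CPM in *Psmb9*, where *B2m* was at -0.13 and 0.13.

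**Figure D4:**
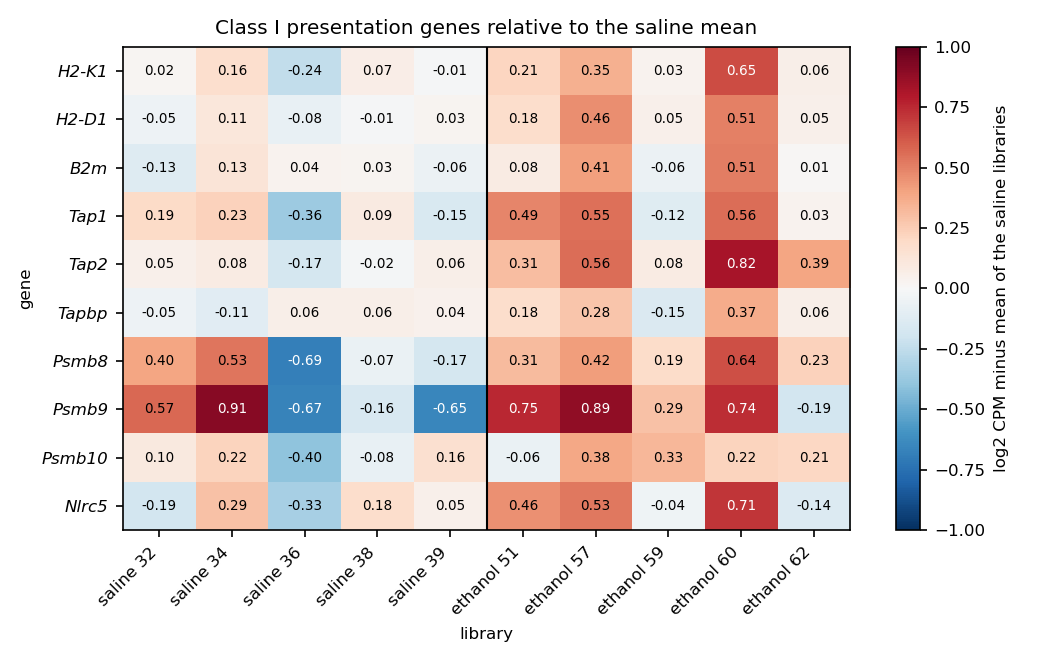
Log2 CPM of each gene (rows) in each library (columns) minus the mean of the 5 saline libraries, with red above and blue below it. Ethanol 60 and 57 are red for every gene, ethanol 59 and 62 are near 0 for most, and saline 36 is blue for 8 of the 10 genes.

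The genes whose level followed the 10 most closely were ranked by Pearson correlation with their mean profile, over 10 libraries centred on their group means, among 10799 genes at 2 CPM or more. The first 5 were *A530016L24Rik* (0.94), the amino acid transporter gene *Slc36a2* (0.94), the sugar kinase gene *Galk2* (0.93), *Spg21* (0.92) and *Mrvi1*, a target of cyclic GMP signalling in smooth muscle (0.92). These are the top of a long ranking over few libraries. Their log2 fold changes were, in the same order, 0.69, 0.23, -0.02, 0.20 and -0.03, with edgeR FDR values of 0.371 or more.

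Other interferon targets had mostly positive values. Of 35 interferon-stimulated genes 32 were tested, 28 had positive fold changes and the median was 0.21. At an unadjusted p under 0.05 in edgeR 5 were higher, beside 6.22% of all genes, and 1 was lower, beside 779 of 13180. None passed FDR 0.05 in edgeR, nor did any other gene. The interferon-induced GTPase genes *Irgm1* (12.4 ± 1.10 against 15.1 ± 0.98 CPM, SD, n = 5 each), *Igtp* (4.64 ± 1.26 against 6.33 ± 0.78) and *Gbp7* (10.3 ± 1.63 against 13.0 ± 2.90) were at log2 fold changes of 0.28, 0.45 and 0.33. *Gbp6* was lower, at 47.9 ± 10.3 and 36.1 ± 3.18 CPM (-0.41, edgeR FDR = 0.287), with its highest value, 65.3 CPM, in saline 36. Interferon transcripts themselves were near the floor of detection, with 1 read of *Ifng* in the saline libraries together and 0 in the ethanol libraries, and 0 reads of *Ifnb1* in all. Of 9 tested genes of interferon receptors and signalling 3 were positive, with a median of -0.05, or -0.11 without ethanol 60, and *Jak2*, the kinase of the interferon gamma receptor, was at 78.7 ± 11.2 and 66.7 ± 4.22 CPM (-0.24, edgeR FDR = 0.370).

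Tested markers of cells that carry much class I also had mostly positive values, except those of neutrophils. Of 8 tested class II antigen presentation genes 7 were positive, with a median of 0.36. The 9 listed genes summed to between 69.6 and 83.4 CPM in saline and between 85.4 and 119.4 in ethanol, without overlap. Of single genes tested 1.36% were apart in that direction, and no such share was computed for sums. *H2-Ab1* was apart, while *H2-Eb1*, *Cd74* and *H2-Aa* overlapped between groups. *H2-Ab1*, a class II chain, stood at 13.5 ± 1.47 and 18.3 ± 2.22 CPM (SD, n = 5 each, 0.44, edgeR FDR = 0.287), and *Cd74*, the invariant chain, at 32.4 ± 2.65 and 43.6 ± 7.91 (0.43, edgeR FDR = 0.287). *Ciita*, the class II counterpart of *Nlrc5*, was at -0.23. The 12 endothelial markers summed to between 832 and 934 CPM in saline and between 946 and 1321 in ethanol, also without overlap and highest in ethanol 60, with 11 of 12 fold changes positive and a median of 0.17. *Fabp4*, a fatty acid carrier that adipocytes also express, made up 301 to 625 CPM of these sums. In a sum without it, added after the data were seen, saline ran from 488 to 625 CPM and ethanol from 546 to 696, and the groups overlapped. *Kdr*, a VEGF receptor, was at 36.4 ± 6.27 and 50.04 ± 8.77 CPM (0.46, edgeR FDR = 0.287), and *Pecam1* was at 0.06. The 10 leukocyte and macrophage markers were all positive with a median of 0.16, and summed to 105 to 128 CPM in saline and 104 to 144 in ethanol. T and NK cell markers, 10 with a row in the table, summed to at most 0.410 CPM in saline and 0.662 in ethanol, and B cell markers to at most 0.742 and 0.568. Neutrophil markers had 5 rows, of which 4 were tested, all with negative fold changes and a median of -1.62, or -1.55 without ethanol 60. The 5 rows summed to 2.90 to 13.6 CPM in saline and 1.20 to 4.56 in ethanol, highest in saline 39. Fibroblast markers were positive for 7 of 8 (median 0.20, 930 to 1160 CPM in saline and 931 to 1262 in ethanol) and adipocyte markers for 7 of 8 (median 0.90, or 0.36 without ethanol 60, 1859 to 2437 CPM and 1834 to 2941). Most of the adipocyte sum was *Car3*, the single negative marker, and without it, again added after the data were seen, the sums were 113 to 225 CPM in saline and 154 to 688 in ethanol, highest in ethanol 60. *Pck1*, which serves glyceride synthesis in adipocytes, stood at 10.9 to 27.6 CPM in saline and at 29.0 to 143.7 in ethanol, highest in ethanol 60 (log2 fold change 1.53, or 0.87 without it; edgeR FDR = 0.332). *Adipoq*, the adiponectin gene, stood at 57.5 CPM in ethanol 60 and at most at 24.9 in any other library. With the endothelial mean as a covariate the 10 class I presentation genes had a median log2 fold change of 0.36 and ran from 0.05 for *Tapbp* to 0.71 for *Psmb9*, all positive, with 1 at an unadjusted p under 0.05 (*Psmb10*), beside 8.43% of all genes in the higher direction. That covariate moved with the groups and can take up part of their difference. It holds the endothelial list alone, *Fabp4* included, and the part of these cells in the class I values was not tested.

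**Figure D5:**
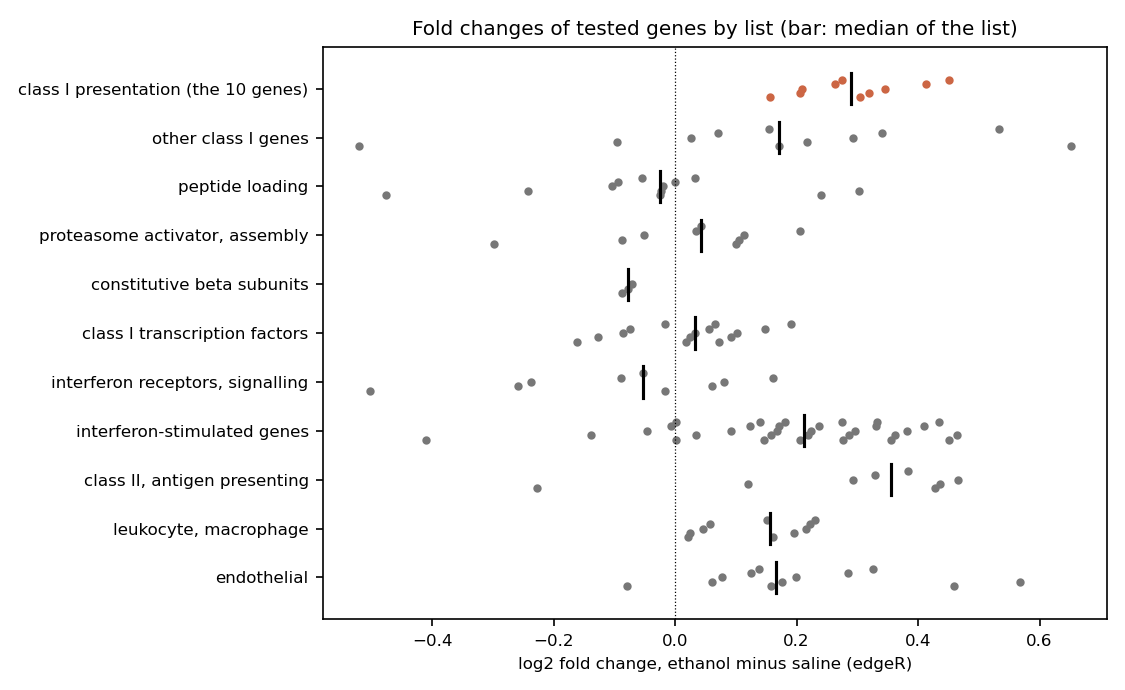
Log2 fold changes, ethanol minus saline, of all tested genes of each list (points) with the median of the list (bar), for the 10 class I presentation genes (orange) and for lists around them (grey). Medians are 0.29 for the 10 genes, 0.36 for class II, 0.21 for interferon-stimulated genes and -0.08 for the constitutive beta subunits. The neutrophil (median -1.62), fibroblast (0.20), adipocyte (0.90) and myofibre lists are not drawn.

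Transcript GC content also differs between these genes and the rest. The median was 56.1% for the 10 genes and 50.5% for all tested genes, with 9 of the 10 above it and *B2m* (41.2%) below. After removal of each library's GC trend, the median log2 fold change of the 10 genes was 0.26 and each was positive, from 0.09 for *Tapbp* to 0.39 for *Tap2*.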

How the data were processed

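The authors deposited whole-number read counts per gene symbol, 1 column per library, of single-end 100-base poly(A) reads per the labels' protocols. TopHat2, DESeq2 1.6.3 and mm10 are named, without a role, in the submitters' processing notes. The sources used here do not give the read counter, the annotation or the strand setting. In 27 rows a calendar date stands in place of the symbol, and these stayed in the totals.

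Counts were filtered by filterByExpr (minimum count 10, minimum total 15), scaled by TMM and tested across all genes by the quasi-likelihood test of edgeR 4.0.16 with robust dispersion in R 4.3.3, with Benjamini-Hochberg adjustment. Alternatives used DESeq2 1.42.0, limma-voom 3.58.1 and sva 3.50.0. Log2 CPM carries a prior count of 2, and subunit ratios 0.5 per count. The procedure was tested on simulated counts, with changes larger than any fitted for the class I presentation genes. How often it finds changes of their size was not tested. Lengths, GC content (96.4% of tested genes) and gene coordinates come from GENCODE M21 (GRCm38). Libraries of a group differed beyond sampling noise (chi-square per degree of freedom of 13.1 or more in all 20 pairs).

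The genes, lists and the rule for named genes (all 10 genes, and up to 4 per list by smallest p) were chosen with earlier results of these data known. Genes named beyond the rule (*Irf1*, *H2-Q6*, *H2-Q7*, *Calr*, *Pdia3*, *Erap1*, *Psme2*, *Ifng*, *Ifnb1*, *Ciita*, *Pecam1* and *Car3*) were chosen after their values were seen.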

Additional observations from a re-analysis of the deposited data

Results flagged for a closer look

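In 1 of 32 sets of 5 values examined (the 10 class I presentation genes, the 3 constitutive subunits and the 3 subunit ratios, each in both groups), a single library lay far from the others. This was the log2 ratio of *Psmb10* to *Psmb7* in saline 36, at -5.48, where the other saline libraries lay between -4.87 and -4.75. Chance alone flags about 1 in 20 such sets.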

How the results depend on the processing

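All fold changes of the 10 class I presentation genes kept their positive sign in each alternative in which the gene was tested, and none was called at an adjusted p of 0.05 in any. *Tap1*, *Psmb9* and *Nlrc5* were not tested at a mean of 5 CPM or more, and *Nlrc5* had no adjusted p in DESeq2. Their median log2 fold change ran from 0.14 (without saline 36 and ethanol 60) to 0.36 (endothelial mean as a covariate), and was 0.28 after thinning all libraries to the smallest total and 0.23 with 1 surrogate variable, where *Psmb10* was at 0.02. The number of genes past FDR 0.05 was 0 in edgeR, 55 with DESeq2, 5 with 1 surrogate variable, 498 with the endothelial mean as a covariate, and 0 to 1 with a library left out. The differences of the 3 subunit ratios stayed positive in each alternative, and none had an adjusted p under 0.05. The lowest ethanol sum of endothelial markers less the highest saline sum was 12.4 CPM, and -78.9 CPM without *Fabp4*, which was added after seeing the data. No paired analysis was possible because the groups share no animal number. Counts per library were lowest for *Nlrc5* and *Psmb9*, and *Psmb9* also varied most among saline mice, with a coefficient of variation of 51.98%.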
